A study of Mus musculus with 14 samples.

Results

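The 743 genomic regions described here carried the highest binding signal of the transcription factor PRDM16 in the mouse fetal ventricles among regions without a peak in Prdm16 knockout hearts. They were chosen from 17587 wild-type (WT) PRDM16 peaks by 3 conditions: a mean of the left ventricle (LV) and right ventricle (RV) values of at least 32 normalized reads, an LV to RV ratio above 0.571 and below 1.75, and no overlap of 1 bp with a knockout peak. A mean of at least 32 was reached by 938 peaks, of which 908 had a ratio within the limits. Of these, 165 (18.2%) overlapped a knockout peak and were left out, which leaves 4.22% of all WT peaks. The knockout list held 330 peaks in all, far fewer than the 17587 of WT. The LV value, the RV value and the knockout peak list therefore set the membership, and they are given below as a description.

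Binding was mapped by ChIP-seq, which sequences the DNA pulled down with an antibody against a protein, in C57BL/6 mouse hearts at E13.5 (embryonic day), with the atria removed. The series holds 14 samples in 8 groups, 7 of them PRDM16 ChIP libraries and 7 input libraries without antibody. Whole hearts gave 2 WT libraries and 1 Prdm16 conditional knockout library, each from 3 pooled hearts of a single genotype, and WT animals (genetic manipulation "Mock") gave 2 libraries of LV and 2 of RV, each from 10 to 12 pooled ventricles. The Cre line that drives the knockout and the deleted exons are not given in the sources used here, and 1 knockout pool has no replicate. Ventricle tissue mixes cardiomyocytes with endocardium, epicardium and other cells, so that a smaller number of bound cells and less binding in each cell cannot be told apart.

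PRDM16 is a zinc-finger protein of the PR domain family that binds DNA and recruits chromatin regulators and coregulators such as CtBP and Mediator. It is best known for brown fat identity, where it acts with coactivators of mitochondrial genes, and it also modulates SMAD signalling. In the heart, loss of PRDM16 is linked to left ventricular noncompaction, in which the compact outer muscle layer of the ventricle stays thin and the inner trabecular layer is overgrown.

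The deposited values do not name the ventricle libraries, so the libraries of each ventricle are called A and B here. All WT peaks together held 330443 reads of LV library A, 184244 of LV library B, 281797 of RV library A and 267808 of RV library B. One read counted as 0.744, 1.47, 0.866 and 0.965 normalized reads in these 4 libraries. The median region of the set held 61, 27, 53 and 42 reads, against 10, 6, 9 and 8 at the median WT peak, so that counting error is smaller at these regions than at most peaks. Sites at Hey2 and 13 regions of low whole-heart enrichment stood apart from the other regions in the balance between libraries, and both are described with their values below. ChIP-seq gives no expression, so the tissue label was checked only through the genes beside the regions. Of the cardiomyocyte markers chosen for this check, Tnnt2, Myh6, Myh7, Actc1 and Ttn carried regions of the set. Nkx2-5, also a marker, was not among the list genes with a region. The neuronal genes Rbfox1, Ntm and Cntnap2 carried regions too (3 of 66 WT peaks of that list). The lists for endothelium, epicardium, fibroblasts and smooth muscle, blood and liver, with 1 to 32 WT peaks each, held none.

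The regions at gene starts are where a sequence can be shown. A summit of 50 regions fell within a RefSeq promoter window (250 bases before to 50 after a gene start, build GRCm38.p6, 17492 of 21900 protein-coding genes matched), with the median summit 82 bases upstream of the start. Below are the 250 bases upstream of the start for protein-coding muscle genes among the strongest such regions. Popdc2, Tnnt2, Nppb and Prdm16 were added after their values were seen because each holds more than 1 of the motifs searched. Windows at Rbm39, Zfp335os, Gm20735 and Mir1a-1hg had more signal than that at Myh6 and are not printed. Gm11476, Olfml3 and Gm32191 also held more than 1 motif and are not printed. The printed genes were picked, so they do not show how common the motifs are. Letters run 5′ to 3′ on the strand of the gene, and capitals mark a TEAD motif (GGAATG, or its reverse complement), a GATA motif (AGATAA), an NKX2-5 motif (TNAAGTG) or a MEF2 motif.
Cacna1c (chr6:119196410-119196659, minus strand): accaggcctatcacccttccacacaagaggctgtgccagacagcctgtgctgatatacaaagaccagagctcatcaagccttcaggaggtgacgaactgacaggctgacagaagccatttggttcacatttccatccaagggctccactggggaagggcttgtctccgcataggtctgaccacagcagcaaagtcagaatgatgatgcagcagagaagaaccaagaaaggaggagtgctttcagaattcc
Myl2 (chr5:122092939-122093188, plus strand): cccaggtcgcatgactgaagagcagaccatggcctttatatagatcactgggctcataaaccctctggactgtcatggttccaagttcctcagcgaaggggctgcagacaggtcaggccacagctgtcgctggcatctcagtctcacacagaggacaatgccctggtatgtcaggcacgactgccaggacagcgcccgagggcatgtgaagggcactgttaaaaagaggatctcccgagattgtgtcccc
Mybpc3 (chr2:91117894-91118143, plus strand): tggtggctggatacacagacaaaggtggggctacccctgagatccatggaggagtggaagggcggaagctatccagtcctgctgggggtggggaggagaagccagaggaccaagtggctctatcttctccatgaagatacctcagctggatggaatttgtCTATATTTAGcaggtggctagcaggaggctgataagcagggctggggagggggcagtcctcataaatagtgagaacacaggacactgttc
Myh6 (chr14:54966608-54966857, minus strand): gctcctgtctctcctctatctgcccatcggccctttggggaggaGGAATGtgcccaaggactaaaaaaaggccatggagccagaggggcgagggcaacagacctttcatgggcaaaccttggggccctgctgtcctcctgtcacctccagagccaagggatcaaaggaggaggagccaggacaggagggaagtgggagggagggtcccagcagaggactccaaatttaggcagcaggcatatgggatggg
Popdc2 (chr16:38361940-38362189, plus strand): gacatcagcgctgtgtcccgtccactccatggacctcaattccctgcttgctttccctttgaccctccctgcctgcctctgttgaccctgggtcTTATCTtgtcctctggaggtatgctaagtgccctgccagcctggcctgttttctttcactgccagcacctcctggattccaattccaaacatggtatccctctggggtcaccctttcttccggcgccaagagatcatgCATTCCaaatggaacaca
Tnnt2 (chr1:135836084-135836333, plus strand): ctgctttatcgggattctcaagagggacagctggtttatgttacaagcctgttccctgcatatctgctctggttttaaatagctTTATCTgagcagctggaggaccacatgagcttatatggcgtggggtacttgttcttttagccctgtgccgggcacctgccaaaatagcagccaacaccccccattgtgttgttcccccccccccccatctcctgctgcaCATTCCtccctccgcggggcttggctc
Nppb (chr4:147985650-147985899, plus strand): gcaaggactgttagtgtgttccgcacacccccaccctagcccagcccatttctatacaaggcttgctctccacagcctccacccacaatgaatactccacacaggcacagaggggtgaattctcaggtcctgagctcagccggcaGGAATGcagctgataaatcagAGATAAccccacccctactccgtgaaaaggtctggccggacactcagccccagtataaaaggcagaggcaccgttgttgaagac
Prdm16 (chr4:154636874-154637123, minus strand): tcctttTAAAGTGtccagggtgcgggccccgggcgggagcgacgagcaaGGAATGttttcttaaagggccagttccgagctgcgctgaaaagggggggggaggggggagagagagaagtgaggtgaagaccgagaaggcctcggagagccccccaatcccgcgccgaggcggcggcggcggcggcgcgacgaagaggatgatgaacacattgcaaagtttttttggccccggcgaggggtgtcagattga
Cacna1c (the pore subunit of the L-type calcium channel) and Myl2 (the ventricular myosin regulatory light chain) held none of these motifs in the window, while Mybpc3 (cardiac myosin binding protein C) held the MEF2 motif and Myh6 (alpha myosin heavy chain) the TEAD motif. Popdc2 (a cAMP-binding membrane protein of muscle), Tnnt2 (cardiac troponin T) and Nppb (a natriuretic peptide) each held a TEAD and a GATA motif. The window of Prdm16 itself held a TEAD motif, an NKX2-5 motif and, past the gene start, a T-box motif (AGGTGT).

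Over the 50 windows with a summit of the set, 14 (28.0%, 95% Wilson interval 17.5 to 41.7%) held the TEAD motif on either strand. The share was 16.4% of the 1282 windows with any WT summit, which include these 50, and 14.7% of all 32815 windows. GATA motifs stood in 9 windows (18.0%, against 7.64% and 11.2%). GC boxes of SP and KLF factors (GGGCGG) stood in 21 windows (42.0%, against 67.5% and 35.6%), and GC content had a median of 58.5% in the 50 windows, 62.7% in windows with any WT summit and 52.7% in all windows. The other motifs searched were the T-box motif (10.0%, against 9.13% and 13.7%), NKX2-5 (10.0%, against 8.27% and 11.5%), the HAND E-box CATCTG (12.0%, against 12.9% and 17.2%), MEF2 (4.0%, against 3.82% and 3.69%), ETS (CCGGAAGT; 6.0%, against 6.63% and 3.89%), CCAAT (26.0%, against 34.2% and 37.4%), AP-1 (TGANTCA; 8.0%, against 5.15% and 7.81%) and NRF1 (2.0%, against 1.40% and 0.966%). None of the 50 windows held the CArG box of SRF, the CRE (TGACGTCA) or the EVI1-type site GAAGATGAG, which stood in 1.63%, 1.79% and 0.399% of all windows. A match gives the letters only, windows are not replicates, and no test was made of these shares. With the window cut to 150 bases around the start, the TEAD share was 12.0%, against 8.03% and 6.93%.

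Whole-heart fold enrichment was not itself a condition of the selection, but the regions were drawn from the whole-heart WT peaks, and 82.4% of the 165 regions removed for a knockout peak had a fold enrichment under 2, so it is no independent support. The authors' fold enrichment of ChIP over background had a median of 9.34 in the 743 regions (lowest 1.37, highest 32.4), 5.79 in 2305 regions of 16 to 32 normalized reads chosen otherwise alike, and 4.004 in all WT peaks. Of the 10 WT peaks of highest whole-heart fold enrichment 9 belonged to the set, as did 87 of the first 100 and 471 of the first 1000. Regions were also wide, with a median of 870 bp against 564 bp and 298 bp. The signal counts reads over a whole region without scaling by length, so the minimum of 32 favours wide regions. Signal and width had a Spearman rho of 0.40 over the 743 regions. Signal in LV and RV followed fold enrichment loosely, with a Spearman rho of 0.42 over the 743 regions, which share libraries and are not independent. These are descriptions over regions, with no value per whole-heart library, so no test was made.

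**Figure D1:**
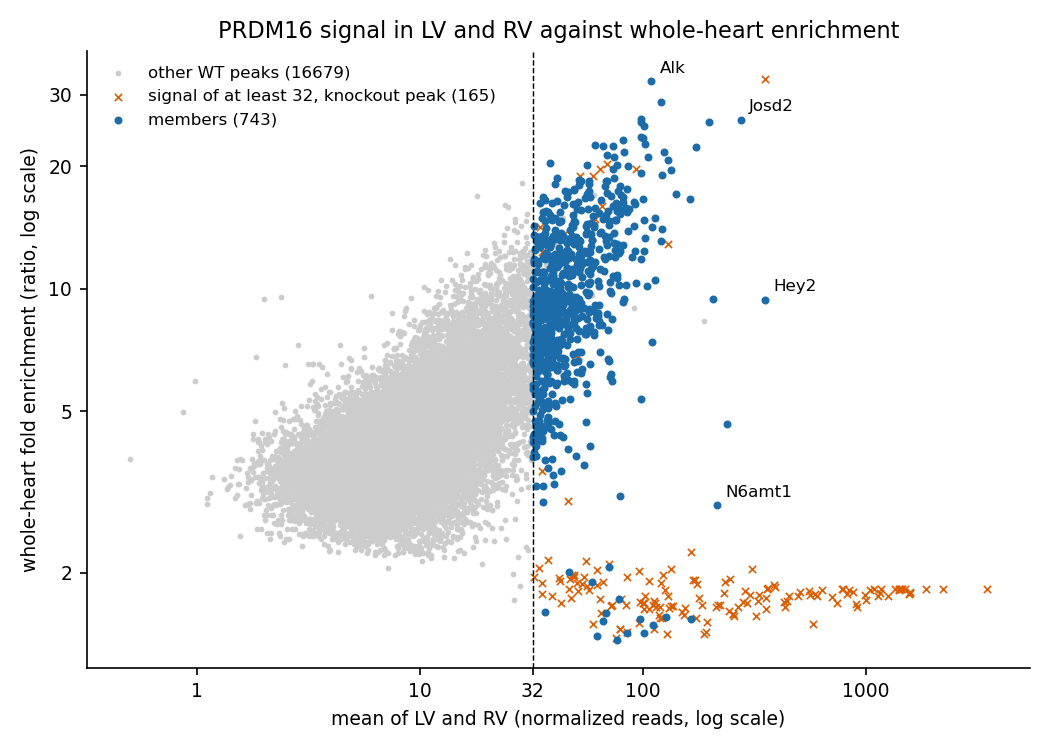
Mean of the LV and RV values (normalized reads, log scale) against the authors' whole-heart fold enrichment (ratio, log scale) for all 17587 WT peaks; blue points are the 743 regions, orange crosses the 165 regions left out for a knockout peak, grey points all others, and the dashed line the minimum of 32. Most blue points lie between a fold enrichment of 5.23 and 15.9 (the 10th and 90th percentiles), 82.4% of the crosses lie under 2, and Alk, Josd2, Hey2 and N6amt1 are named at the outer points.

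Alk, a receptor tyrosine kinase, held the region of highest fold enrichment (32.4, chr17:72275151-72276189, inside the gene), with 121 and 113 normalized reads in LV (library A before B, here and below) and 97.0 and 103 in RV. Ndufs6, a subunit of mitochondrial complex I, followed (28.7, 20947 bp outside the gene), with 140 and 108 in LV and 114 and 117 in RV. Rbm39, an RNA-binding splicing factor, had a fold enrichment of 26.1 at its start, with 92.3 and 76.2 in LV and 110 and 113 in RV. At Alk both LV libraries stood above both RV libraries and at Rbm39 below them, while at Ndufs6 the ventricles overlapped. Josd2, a deubiquitinase gene, had the highest normalized signal after a Hey2 region described below: 297 and 215 in LV and 299 and 286 in RV (fold enrichment 26.1, width 2177 bp, chr7:44471794-44473970). Slc25a13, which encodes the mitochondrial aspartate and glutamate carrier citrin, had 176 and 125 in LV and 213 and 174 in RV (fold enrichment 22.3, inside the gene). At neither of these did the ventricles separate. A region nearest to N6amt1, a methyltransferase gene 533251 bp away, combined high signal (188 and 198 in LV, 219 and 251 in RV) with a low fold enrichment of 2.93, and both RV libraries were the higher.

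Prdm16 was the nearest gene of 5 regions of the set, out of 18 WT peaks. The first, inside the gene (chr4:154392913-154394483), had 238 and 158 normalized reads in LV and 217 and 178 in RV, with a fold enrichment of 25.7. A region at chr4:154528336-154528894, also inside the gene, had a fold enrichment of 9.43 and an unequal balance of libraries, 227 and 198 in LV but 92.7 and 307 in RV. The other 3 had 30.8 to 64.8 in any library, and 1 of them, with a fold enrichment of 5.15, had its summit 24 bases upstream of the gene start whose sequence is printed above. LV and RV overlapped at all 5, where 35.4% of all WT peaks had the libraries of the ventricles apart. Without LV library A and RV library B, the LV to RV ratio was 2.13 at chr4:154528336-154528894 and 0.534 at chr4:154442652-154443524. Both are outside the ratio limits, while the rest stayed within them.

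Sarcomere genes, which build the contractile apparatus, had the densest representation of the lists. Of the 177 WT peaks nearest to 43 sarcomere genes, 30 (16.9%) belonged to the set, against 4.22% of all WT peaks, and 22 of the 43 genes had at least 1. Their median fold enrichment was 11.8. Gene starts held 13 of the 30 (43.3%), against 26.6% of all WT peaks of these genes and 17.4% of all WT peaks, and none lay beyond 50000 bp from a gene. These lists were drawn up with results of the same data known, so the shares describe the set and support no claim of preference.

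Myosin genes carried several of them. Myl2 had 4 regions of 7 WT peaks, and its start had 132 and 92.3 normalized reads in LV and 101 and 95.5 in RV (fold enrichment 21.0). The other 3 had fold enrichments of 5.91 to 12.3, and at 2 of them both LV libraries were above both RV libraries. That order was found at 17.9% of all WT peaks. Myh7 (beta myosin heavy chain) had 94.5 and 89.4 in LV and 107 and 108 in RV at chr14:54996662-54997496, 2340 bp outside the gene (fold enrichment 23.5), where RV was the higher in both libraries. A second Myh7 region, 2335 bp wide, and 2 regions at Myh6 made up a run of 4 regions over 39670 bp around these neighbouring genes. The Myh6 start had 87.1 and 46.9 in LV and 88.3 and 58.8 in RV.

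Ankrd1, a titin-associated protein of the muscle stress response, had a region at its start with 126 and 79.1 in LV and 171 and 140 in RV, so that both RV libraries were the higher (fold enrichment 20.7), and another 9916 bp from the gene (21.7). Actc1 (cardiac alpha actin) had 142 and 82.0 in LV and 147 and 107 in RV at its start (fold enrichment 13.1), where the ventricles overlapped. Mybpc3 had 121 and 86.4 in LV and 119 and 87.8 in RV over 2230 bp, and Tnnt2 had 78.9 and 52.7 in LV and 81.4 and 53.1 in RV. At both genes the A library of a ventricle stood above its B library, and LV and RV did not separate. Further members included Ttn (titin), Tpm1 (tropomyosin), Des (desmin), Actn2 (alpha actinin), Flnc (filamin C), Ldb3 (a Z-disc protein), Tnni1, Myl4, Mylk3, Fhl2, Fhod3, Smyd1, Unc45b and Xirp1.

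Calcium handling and ion channel genes had 16 regions out of 140 WT peaks (11.4%), at 12 of 30 genes, with a median fold enrichment of 13.0. Ryr2, the calcium release channel of the sarcoplasmic reticulum, had 109 and 93.8 normalized reads in LV and 106 and 93.6 in RV (fold enrichment 25.2), and Atp2a2, the calcium pump SERCA2, had 130 and 87.9 in LV and 90.1 and 100 in RV (22.8). Neither region lay in its gene: the distances were 26743 and 18758 bp. The region at the start of Jph2, which holds the sarcoplasmic reticulum beside the cell membrane, had 55.8 and 14.7 in LV and 49.4 and 52.1 in RV, the largest gap between LV libraries outside Hey2. Its other region, inside the gene, had 77.4 and 61.5 in LV and 69.3 and 64.6 in RV (fold enrichment 17.2). Kcnh2, a potassium channel of repolarization, had 77.4 and 77.7 in LV and 71.9 and 65.6 in RV inside the gene. A region at the start of Cacna1c, counted for Dcp1b because it lies inside that neighbouring gene, had 135 and 98.2 in LV and 137 and 124 in RV (21.7).

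**Figure D2:**
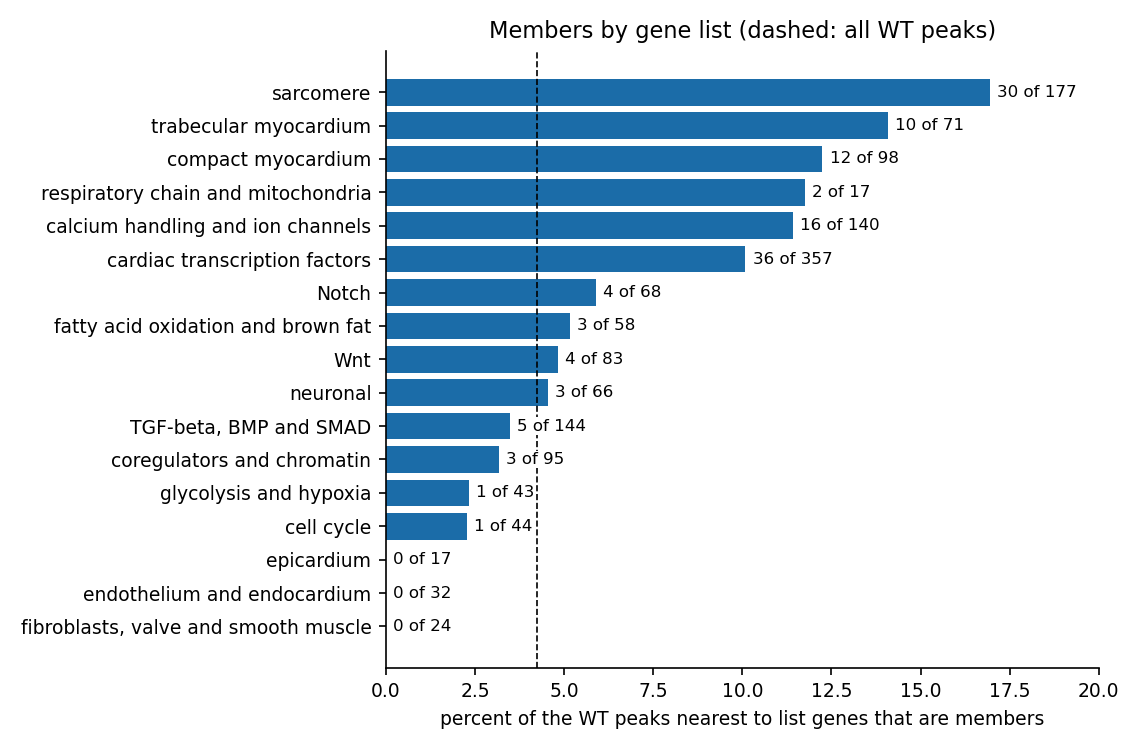
Percent of the WT peaks nearest to the genes of each list that belong to the set, for lists with at least 10 WT peaks; numbers beside the bars give regions of the set out of WT peaks, and the dashed line is the share over all WT peaks (4.22%). The 5 heart lists lie between 10.1% and 16.9%, and the lists of endothelium, epicardium and fibroblasts are at 0; the respiratory chain bar rests on 2 of 17 peaks.

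Cardiac transcription factor genes had 36 regions out of 357 WT peaks (10.1%), at 19 of 49 genes, and 12 of the 36 (33.3%) lay beyond 50000 bp from any gene, against 25.5% of the WT peaks of these genes and 15.6% of all WT peaks. Hopx, a homeodomain protein of differentiating cardiomyocytes, had 175 and 148 normalized reads in LV and 166 and 161 in RV, 15669 bp outside the gene (fold enrichment 16.6). Myocd, the coactivator of SRF in muscle, had 6 regions out of 15 WT peaks, from its start to 152084 bp away, with fold enrichments of 5.04 to 14.5. The libraries of LV were both above those of RV at 2 of these 6, below at 1, and overlapped at 3. Over all WT peaks the libraries were apart, in either direction, at 35.4%. Tbx3, a T-box repressor, had 3 regions (fold enrichment 4.299 to 13.46), Gata6 had 3 (3.48 to 8.69) and the Iroquois genes Irx1, Irx2, Irx3 and Irx5 had 1, 1, 2 and 1. Irx2 had 52.8 and 48.3 in LV and 51.1 and 40.5 in RV at a region 253295 bp from the gene (15.2).

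For the compact layer of the myocardium, 12 of 98 WT peaks (12.2%) belonged to the set, at 5 of 15 genes: Prdm16, Hey2, Tead1, Tbx20 and Fstl4. The 12 include 5 regions at Prdm16 and 3 at Hey2. Without LV library A and RV library B, the means at 2 of these Hey2 regions were 30.8 and 27.0, under the minimum of 32, so this share rests in part on those libraries. Tead1, the DNA-binding partner of YAP, had 80.4 and 65.9 normalized reads in LV and 85.7 and 80.1 in RV, 22959 bp outside the gene (fold enrichment 12.4). Tbx20, a T-box factor of the chambers, had 64.8 and 33.7 in LV and 31.2 and 36.7 in RV, 114134 bp from the gene (14.6), so that LV library A alone was high. Fstl4, a follistatin-like gene, had 28.3 and 39.6 in LV and 25.1 and 37.6 in RV, with the B libraries above the A libraries.

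Genes of the trabecular layer, the inner muscle of the ventricle, had 10 regions out of 71 WT peaks (14.1%), at 8 of 19 genes. LV was the higher at 8 of these 10 and at 344 of all 743 regions, and the median log2 of RV over LV was -0.24 against 0.03, where the ratio limits keep each value within 0.81 of 0. The libraries overlapped between ventricles at Hopx, Irx2, Nppa, Kcne1 and 1 region each of Gja5 and Irx3, and no test was made. Nppa and Nppb encode the natriuretic peptides. The region at the Nppb start had 61.0 and 55.7 normalized reads in LV and 42.4 and 44.4 in RV, both LV libraries the higher, and that at Nppa had 70.7 and 39.6 in LV and 33.8 and 48.2 in RV, which overlap. Gja5, a gap junction protein, had 72.2 and 64.5 in LV and 75.3 and 43.4 in RV at the stronger of 2 regions (fold enrichment 13.7). Erbb4, the neuregulin receptor, had 61.0 and 55.7 in LV and 55.4 and 43.4 in RV inside the gene (3.69). Kcne1, a potassium channel subunit, was higher in RV by a log2 of 0.06.

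In signalling and metabolic lists the share was 2.27% to 5.88%, apart from the respiratory chain list with 2 of 17 WT peaks. TGF-beta, BMP and SMAD genes had 5 regions out of 144 WT peaks (3.47%). A region 35516 bp outside Tgfb2, a ligand gene, had 46.1 and 46.9 normalized reads in LV and 71.0 and 64.6 in RV (fold enrichment 16.8). It lies at the start of another gene, Gm35546. A region 5008 bp outside Bmp7, another ligand gene, had 94.5 and 77.7 in LV and 112 and 118 in RV (12.4). Both RV libraries were the higher at these 2 regions, an order found at 17.6% of all WT peaks and at 135 of the 743 regions. The coreceptor Tgfbr3 had 63.3 and 42.5 in LV and 47.6 and 47.3 in RV, 54474 bp from the gene. The BMP target Id2 had 46.8 to 48.3 in all 4 libraries, 197946 bp from the gene, and the inhibitory Smad7 had 29.3 to 54.6. Coregulators and chromatin genes had 3 of 95 (3.16%; Smarca2, Arid1a and Hdac5), Wnt genes 4 of 83 (4.82%; Daam1, Ror1 and Sfrp1), Notch genes 4 of 68 (5.88%), of which 3 were at Hey2, and cell cycle genes 1 of 44 (2.27%), at Ccny. Brown fat and fatty acid oxidation genes, the setting PRDM16 is best known for, had 3 of 58 (5.17%). They were Ppargc1a, the coactivator of mitochondrial genes, with 2 regions (fold enrichment 9.11 and 5.78), and Ppargc1b with 1 (13.1). The respiratory chain list had 2 regions of 17 WT peaks, Ndufs6 and the muscle cytochrome oxidase subunit Cox6a2, whose start had 37.2 and 24.9 in LV and 45.0 and 43.4 in RV. Glycolysis and hypoxia genes had 1 of 43 (2.33%), at the start of Pkm (pyruvate kinase). Neuronal genes had 3 of 66 (4.55%), at Rbfox1, Ntm and Cntnap2.

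Lists of other cell types held no region of the set: 0 of 32 WT peaks for endothelium and endocardium, 0 of 17 for epicardium, 0 of 24 for fibroblasts, valve and smooth muscle, 0 of 7 for erythroid and immune genes and 0 of 1 for hepatocytes. These lists had few WT peaks of any kind, and no test was made of their counts. The 5 heart lists together had 88 regions of 757 WT peaks (11.6%) at 58 of 144 genes, and 619 genes in all were nearest to at least 1 region, 19 of them to 3 or more. Among genes outside the lists, Rbm20 (a splicing regulator of titin) and Shb (an adaptor protein) had 4 regions each, all inside the gene. A nearest gene need not be the gene that a region acts on.

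Regions lay at gene starts about as often as other peaks. A summit within 1000 bp of a gene start was found for 127 (17.1%, 95% Wilson interval 14.6 to 19.97%), against 17.4% of all WT peaks and 21.8% of the regions of 16 to 32 normalized reads. For 32 of the 127 the start was unknown and either gene end was used. A further 323 (43.5%) lay elsewhere inside a gene, 191 (25.7%) outside within 50000 bp and 102 (13.7%) further away, against 46.7%, 20.3% and 15.6% of all WT peaks. The median fold enrichment was 8.01 for regions at gene starts and 10.4 for those beyond 50000 bp. By fold enrichment, gene starts held 0 of 13 regions under 2, 8 of 18 from 2 to 4, 24 of 81 from 4 to 6, 31 of 140 from 6 to 8 and 26 of 170 from 8 to 10. Above that they held 28 of 224 from 10 to 15, 4 of 72 from 15 to 20 and 6 of 25 from 20 to 40, so the share did not fall steadily.

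**Figure D3:**
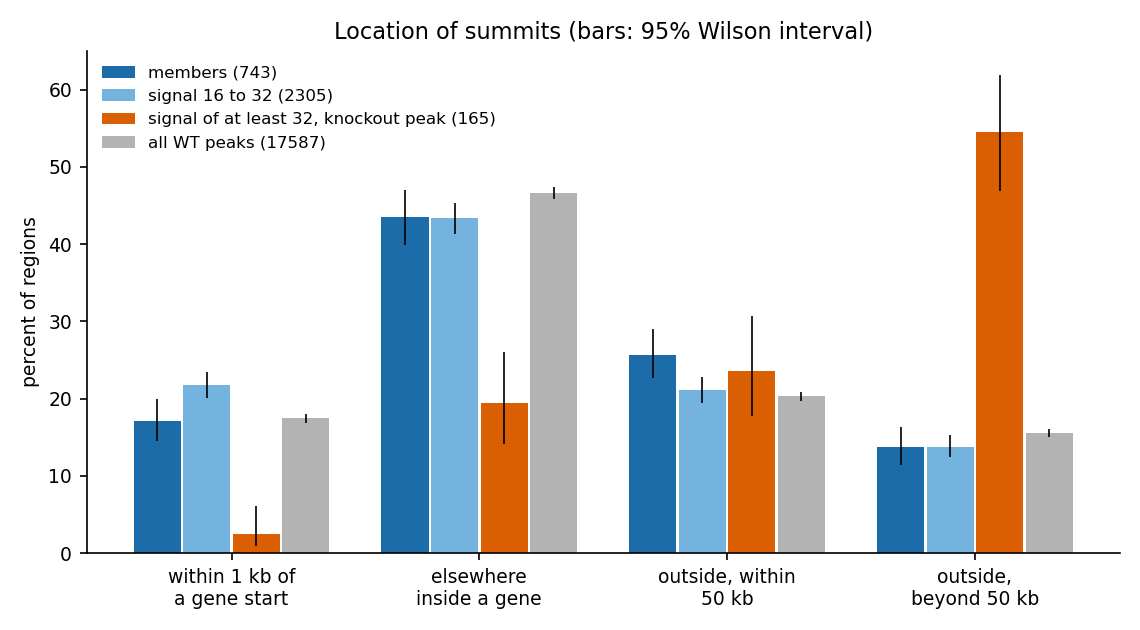
Percent of regions by place of the summit for the 743 regions, the regions of 16 to 32 normalized reads, the 165 with a knockout peak and all WT peaks; error bars are 95% Wilson intervals, which cover counting error only. The bars of the set stay near those of all WT peaks except outside genes within 50000 bp (25.7%, interval 22.7 to 29.0%, against 20.3%). Of the regions with a knockout peak, 54.5% lay beyond 50000 bp from a gene.

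Most regions had no other region of the set close by. Another region of the set lay within 50000 bp for 174 of 743 (23.4%). Of all WT peaks, 73.6% had another WT peak as near, but a set of 4.22% of the peaks is sparser by its size. Runs of regions spaced in this way numbered 62 with 2 regions and 14 with 3 or more. The longest that did not consist of low-enrichment regions were 5 at Cux2 and Myl2 over 40509 bp, then 4 at Myh6 and Myh7, 4 at Eapp and Snx6 over 28243 bp and 4 at Shb over 69737 bp. Other WT peaks were frequent nearby, with a median of 3 within 50000 bp, against 1 around all WT peaks. On single chromosomes the set took from 2.52% (X) to 6.02% (11) of the WT peaks, apart from Y with 0 of 4.

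Agreement between the libraries of a ventricle was not itself a condition, but the ratio limits remove some regions where a single library is high. A region at Mycn with 812, 25, 34 and 79 reads failed them in this way, so the agreement is partly set by the selection. The higher library exceeded the lower by a median factor of 1.286 in LV and 1.197 in RV after normalization. These factors were 1.51 and 1.42 over all WT peaks, where fewer reads add counting error. In the 30 regions of high signal outside the ratio limits and without a knockout peak, they were 1.35 and 1.23. The closest agreement in both ventricles was at Atp9a, with 38.0 and 38.1 in LV and 27.7 and 28.0 in RV, and at Krr1, with 35.7 and 35.2 in LV and 52.0 and 51.1 in RV. In the first LV was above RV and in the second below, by log2 values of -0.44 and 0.53. The widest gaps, apart from Hey2, were at Jph2, Afap1 (77.4 and 20.5 in LV, 50.2 and 52.1 in RV) and a region nearest to Hddc2 (53.6 and 54.2 in LV, 23.4 and 86.8 in RV).

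Hey2, the Notch-related repressor of the compact layer, had 3 WT peaks and all 3 belonged to the set. At chr10:31034760-31035467, 192325 bp from the gene, the reads were 840 and 26 in the LV libraries and 26 and 744 in the RV libraries, A before B. Inside the gene, 615 bp from its start (chr10:30841987-30842367), the reads were 533, 22, 24 and 515. LV library A and RV library B were thus far above the other library of the same ventricle at both sites, and the ventricles overlapped. Without those 2 libraries the means were 30.8 and 27.0 normalized reads, so that neither region reached 32. Both are whole-heart WT peaks, as every region is by the selection, with fold enrichments of 9.39 and 4.66. At the third region (chr10:31052816-31053853) the reads were 108, 27, 44 and 67, the fold enrichment was 12.2, and the mean without the 2 libraries was 39.3. Among the 938 regions of at least 32 normalized reads, 3 had LV library A and RV library B each at least 2 times both others. They were these 2 and a region at Mycn with 812, 25, 34 and 79 reads that failed the ratio limit. The opposite pattern was found at 0. Why these libraries differ there was not tested.

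**Figure D4:**
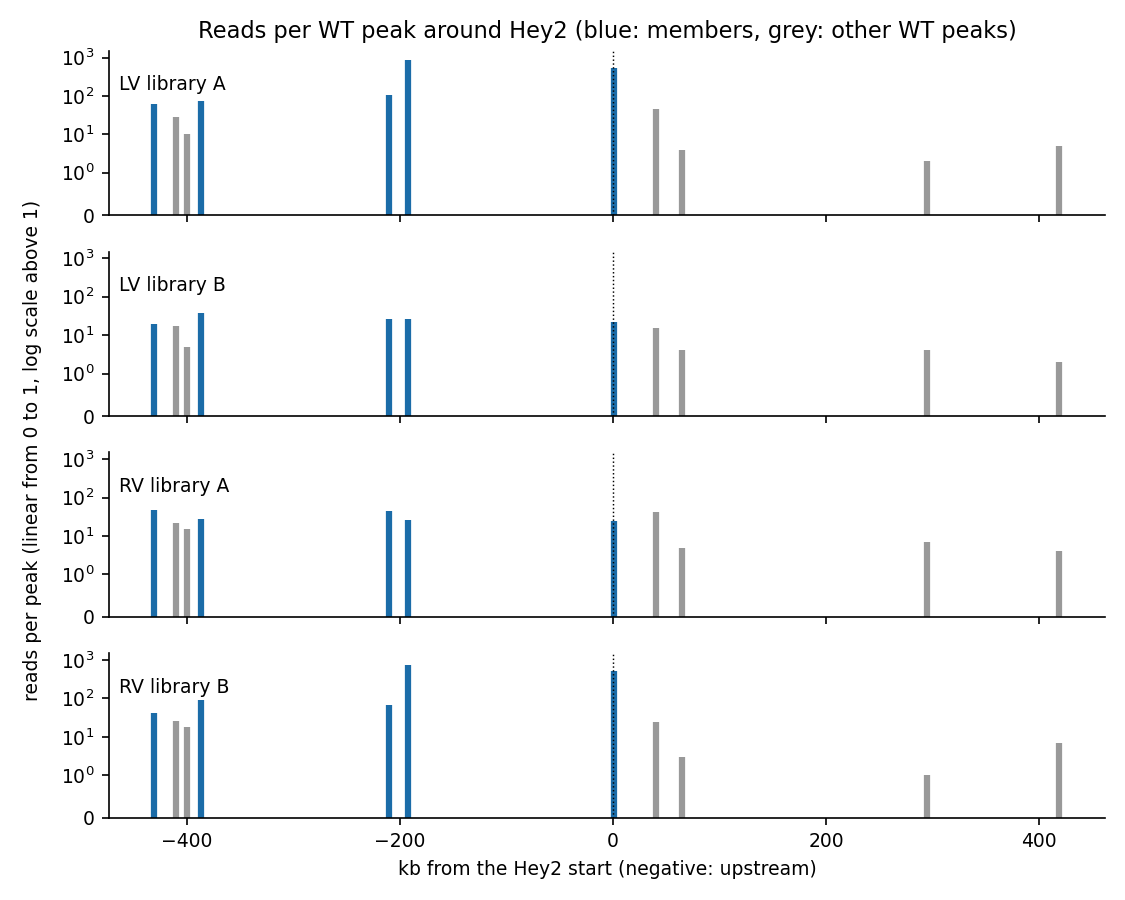
Reads of each of the 4 ventricle libraries at the WT peaks within 500000 bp of the Hey2 start, by distance from the start in kb (linear from 0 to 1 read and log scale above); blue bars are regions of the set (members) and grey bars other WT peaks. The bars at 0.615 and -192.325 kb are high in LV library A and RV library B alone, and no other WT peak in the window exceeds 108 reads in any library.

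Among the regions, 13 had a whole-heart fold enrichment under 2 (1.37 to 1.90), a limit chosen after the values were seen. Of these, 6 were nearest to Sfi1, a spindle and centrosome gene, on chromosome 11 and 3 to Tmem267 on chromosome 13, and the others were nearest to Gm39469, Apool, 9230019H11Rik and Cyp2b19. They were narrow, with a median width of 306 bp against 870 bp over the set, and 9 of them lay within 10000 bp of a knockout peak, as did 0 of the other 730 regions. The closest was 82 bp from one, at Tmem267. Their reads were balanced otherwise than in the rest: LV library A held 1.01 times the reads of LV library B in the median, and RV library A 0.68 times those of RV library B, against 2.44 and 1.24 in the other 730. At Gm39469 the reads were 153 and 151 in LV and 145 and 198 in RV. In the 165 regions left out for a knockout peak these ratios had medians of 1.14 and 0.803, and 82.4% of these had a fold enrichment under 2. Without the 13 regions the set numbers 730, with a median fold enrichment of 9.40.

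**Figure D5:**
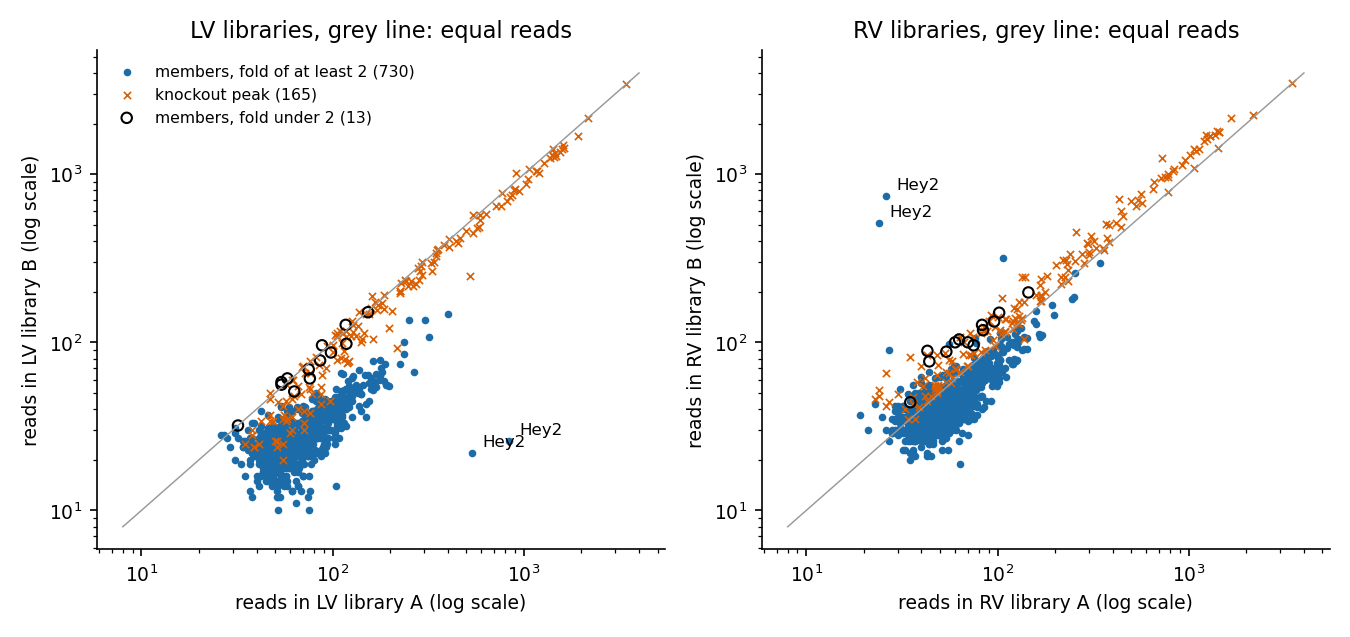
Reads in library A against library B of LV (left) and RV (right), log scales, for the regions of fold enrichment of at least 2 (blue), the 13 under 2 (open circles) and the 165 with a knockout peak (crosses); the grey line marks equal reads. Most blue points lie below the line in both panels; the open circles lie close to it in LV (ratios of 0.917 to 1.25) and, like most crosses, above it in RV, and the 2 Hey2 sites lie far from it on opposite sides in LV and RV.

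Most of the 165 regions that missed the set by a knockout peak alone had low enrichment, led by a region nearest to Col19a1 with 3421 and 3427 reads in LV and 3451 and 3488 in RV at a fold enrichment of 1.82. A fold enrichment of at least 8 was found at 15. At these 15, Arid1b first (32.9), the knockout peak had 0.640 to 2.14 times the enrichment of the WT peak. RV library A had fewer reads than library B at 14 of the 15, as it had at 157 of the 165. The exception was Hspb7, a small heat shock protein of heart muscle, with a region of 2387 bp and a WT fold enrichment of 12.8, overlapped by a knockout peak of 182 bp with a fold enrichment of 8.23. In that region RV library A had 1.32 times the reads of library B. Knockout sensitivity is thus read here from a missing peak in 1 knockout library, whose depth is not given in the files used here, and not from a difference in reads. With 330 knockout peaks against 17587 WT peaks, a missing peak need not mean lost binding.

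Across the set, 399 regions were higher in RV and 344 in LV, with a median log2 of RV over LV of 0.03 (SD 0.317 across regions), against -0.0028 (SD 0.626) over all WT peaks. Without LV library B or RV library A the median was -0.09 or -0.07, and without LV library A or RV library B it was 0.19 or 0.11, so that its direction turns on single libraries. The limits of the ratio bound this spread. Libraries of LV and RV did not overlap at 250 regions (33.6%), 115 with LV and 135 with RV the higher, and at 35.4% of all 17587 WT peaks, so that the share is near the background. By the authors' deposited table, 0 regions of the set had an adjusted p under 0.05, as did 0 of all WT peaks (0%), and 0 had an unadjusted p under 0.05, against 85 of all WT peaks (0.483%); the smallest in the set was 0.0561. No test was made, since the ratio was part of the selection.

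Just inside the signal minimum lay Plxdc1 (32.001), a Myocd region (32.002) and a Ppargc1a region (32.009), and just outside Tgm2 (31.976), N6amt1 (31.929) and Chd2 (31.924). Fold enrichments were 4.33, 8.18 and 5.78 inside and 6.40, 8.74 and 4.36 outside. LV to RV ratios just inside the limits were 0.573 at Rbpms, 0.577 at Arhgef17 and 0.580 at Unc5b, and just outside 0.571 at Kcnj6, 1.755 at Usp28 and 0.566 at Eno3.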

How the data were processed

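PRDM16 ChIP-seq peaks and their values were analysed from the tables that the authors deposited, and the reads of the input and whole-heart libraries were not used here. Per the file headers, the deposited LV and RV columns hold normalized signal, with a log2 ratio of RV to LV and a p-value and adjusted p-value for it. The WT and knockout peak lists hold, per the order of their columns, the authors' score, fold enrichment (a ratio over background), −log10 q and the summit position. The submitters' processing notes name the tools DESeq2, HOMER, MACS2 (2.1.1.20160309) and BWA (0.7.12-r1039) and the builds mm10 and GRCm38, with no role. No source used here says whether peaks were called on pooled libraries.

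The LV and RV values equal 0.5 plus the mean over 2 libraries of whole reads times a factor. Reads were recovered from this for 100% of regions (tolerance 1e-07), and the recovery was tested on simulated data. Libraries A and B cannot be tied to the numbered samples. The replicates are pools, so spreads measure differences between these pools only. Each summit was assigned to the nearest protein-coding gene body, a gene start meant within 1000 bp, and gene starts and sequences came from RefSeq GRCm38.p6. Wilson 95% intervals cover counting error only. Since the selection used the ratio, no test was run on LV against RV, and regions, which share libraries, were not treated as replicates.

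Regions named are the 20 of highest signal, those beside the thresholds, up to 4 of highest fold enrichment per gene list, the 6 genes with the most regions, and the 5 at each extreme of fold enrichment, library ratio, width and distance to a knockout peak; further genes of a list are named without values or were chosen after their values were seen. The regions and the 19 gene lists were chosen with earlier results of these data known. Alternatives were other signal and ratio limits, overlap and q-value limits, distances, a pseudocount of 1, a shorter promoter window and each library left out. The tools were matplotlib 3.10.9, scipy 1.17.1, pandas 2.3.3 and numpy 2.4.6 in Python 3.11.15.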

Additional observations from a re-analysis of the deposited data

How the results depend on the processing

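No paired analysis was possible because the columns carry no replicate numbers and no test between groups was made. The number of regions was 1383 at a signal minimum of 24 and 278 at 48, with median fold enrichments of 8.05 and 12.0, and with 370 and 50 regions within 50000 bp of another. At 48, 44 regions were nearest to genes of the heart lists, and the median ratio between LV libraries was 1.31. At 24 the ratio between RV libraries was 1.203, and with a pseudocount of 1 it was 1.190. When a region was dropped only if a knockout peak covered at least 50% of it, the median fold enrichment was 9.14. Within 10000 bp, 64 regions had another. The share at gene starts was 14.5% within 500 bp and 26.6% within 5000 bp. Motif shares in windows of 150 bases were 12.0% for TEAD, 4.0% for T-box, 2.0% for NKX2-5, 4.0% for HAND and 0% for NRF1. Leaving out each library in turn gave 648 to 792 regions, median fold enrichments of 9.11 to 9.53, gene start shares of 17.0 to 18.6%, 78 to 86 regions at heart list genes, 129 to 181 with another region nearby, and a median log2 of RV over LV from -0.09 to 0.19, so that its sign rests on single libraries. Without LV library A, 618 of the 743 regions were retained.

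After the data were seen, 2 further alternatives were added: leaving out LV library A and RV library B together kept 591 of the 743 regions, and leaving out the regions of fold enrichment under 2 gave a median of 9.40. Each ventricle has only 2 libraries and the knockout 1, and the median region held 27 reads in the shallowest library; what difference between ventricles this could show was not tested. The causes of the shifts named here were not tested.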

Other observations

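Several regions outside the gene lists carried high signal. Herpud2, an endoplasmic reticulum protein gene, was nearest to 3 regions of 9 WT peaks, with fold enrichments of 13.2 to 20.2. The strongest in signal, 133758 bp outside the gene, had 197 and 98.2 normalized reads in LV and 134 and 128 in RV. Nrp1, a semaphorin and VEGF coreceptor, had 3 of 10 (5.94 to 22.4), and Cxcl12, a chemokine, 3 of 12 (8.80 to 14.8). Tbx19, a T-box gene of the pituitary, had 3 of 6, with a median log2 of RV over LV of 0.31. Adcy5, a cardiac adenylyl cyclase, had 3 of 4 over 41415 bp. Fos, an immediate early gene, had 124 and 80.6 in LV and 144 and 103 in RV (fold enrichment 10.5), and the ventricles overlapped.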
